A study of Mus musculus with 9 samples.

Results

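Notch signalling was examined at the level of its RNAs in T15, a murine PTCL cell line that lacks Smarcb1. The set comprised 10 genes, taken by name: the receptors Notch1, Notch2 and Notch3, the ligand Jag1, the DNA-binding factor Rbpj, and the target or effector genes Hes1, Hey1, Dtx1, Nrarp and Ptcra. All 10 were found among the 35288 genes listed, and 8 of them were among the 13697 genes with enough counts to be tested; Notch3 and Hes1 were not. RNA-seq covered 9 libraries, with 3 of T15 control cells, 3 of T15 cells given SAHA (vorinostat, a pan-histone deacetylase inhibitor) at 1 µM for 72 h, and 3 of Smarcb1-RE cells. Smarcb1-RE cells are T15 cells transduced with a lentiviral Smarcb1 cDNA, selected with G418 and induced with doxycycline (0.5 µg/µl, 72 h). All groups derive from a single cell line. The study reports a strong induction of apoptosis, with most cells dead, in this line at the SAHA concentration used here. For re-expression it reports slower growth without an effect on viability. The part of cell death or slower growth in the values below was not tested. The labels' protocol mentions both a vehicle and a control plasmid without tying either to the control libraries, and the study's text calls the control cells untreated, so that transduction, selection and doxycycline cannot be told apart from Smarcb1 itself. The labels also do not name the clone or clones behind the Smarcb1-RE libraries.

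Notch receptors are single-pass membrane proteins that are cut when a ligand of the Jagged or Delta-like family on a neighbouring cell binds them. A metalloprotease and then gamma-secretase release the intracellular part, which enters the nucleus, binds Rbpj and recruits Mastermind-like coactivators, whereas Rbpj without Notch recruits corepressors that include histone deacetylases. In the thymus, Notch1 signalling commits progenitors to the T-cell lineage and drives expression of Ptcra, the invariant chain of the pre-T-cell receptor. Activating NOTCH1 mutations are common in T-cell acute lymphoblastic leukaemia. RNA levels of receptors and targets do not measure receptor cleavage, and bulk RNA cannot tell fewer expressing cells apart from less RNA per cell.

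Library totals lay between 20900424 and 24941408 counts. Smarcb1 itself had 2, 5 and 8 counts in control, 7, 13 and 3 in SAHA, with 151, 147 and 142 in Smarcb1-RE. Control replicate 1 stood apart, with a chi-square per gene of 12.9 and 14.4 against the other control libraries, whereas all other replicate pairs lay between 2.07 and 4.6. It was the lowest control library for Notch1, Notch2, Jag1, Rbpj, Hey1 and Ptcra, and values without it are given where they moved a result. Of 9 mature T-cell markers, Cd2 and Cd5 had at most 3 counts in every library, while the summed level of the list was 2237 to 2673 CPM (counts scaled to library size after TMM normalization) over all libraries. Rag2, Dntt and Cd4, from a list of 8 markers of immature thymocytes, were also at or under 3 counts, and the summed level of that list, which came mainly from Cd8b1 and Ccr9, was 647 to 671 CPM in control, 749 to 765 in SAHA and 569 to 593 in Smarcb1-RE. Of 6 B-cell markers, Cd79b was at or under 3 counts in all libraries, and the summed level was 92.7 to 95.9, 101 to 112 and 155 to 163 CPM in the same order. The 7 myeloid markers summed to at most 0.765 CPM in any library, with Csf1r, Adgre1, Fcgr1 and Cd14 at or under 3 counts throughout. Of 7 endothelial or stromal markers, Cdh5, Kdr, Pdgfrb and Acta2 were at or under 3 counts, and the sum of 108 to 155 CPM over all libraries came mainly from Pecam1. The part of these markers in the results on Notch genes was not tested.

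Most genes moved in every comparison, which sets the scale for the Notch genes. By edgeR's quasi-likelihood test at an adjusted p under 0.05, 32.6% of tested genes were higher and 34.3% lower in SAHA than in control, 39.2% higher and 38.6% lower in Smarcb1-RE than in control, and 37.7% higher and 36.8% lower in Smarcb1-RE than in SAHA. Among the 8 tested members, 5 were higher and 0 lower in SAHA, 2 were higher and 1 lower in Smarcb1-RE, and 2 were higher and 5 lower in Smarcb1-RE than in SAHA. With library totals as the only scaling, 5 members were higher in Smarcb1-RE than in control. With a log2 fold change of at least 1 as well, SAHA had 4 members higher, against 9.85% of all tested genes, and 0 lower (2.35%), and Smarcb1-RE had 1 higher (16.9% of all genes) and 1 lower (6.78%). In the direct comparison 1 member was then higher (11.5%) and 2 were lower (8.21%), with 19.8% of all genes called in either direction. Hey1 and Ptcra passed the filter on low counts only through the group in which they were high, so that these counts describe the genes and do not support a statement on the whole set. The median log2 fold change of the tested members was 0.71 in SAHA and 0.12 in Smarcb1-RE, and that of all tested genes was 0.00 and 0.01. The members' medians include Hey1 and Ptcra, and they too support no statement on the whole set. With library totals as the only scaling, the median of all genes moved to 0.17 in Smarcb1-RE against control and to 0.18 against SAHA, and the share of calls that were higher went from 50.4% to 61% and from 50.6% to 62.1%.

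**Figure D1:**
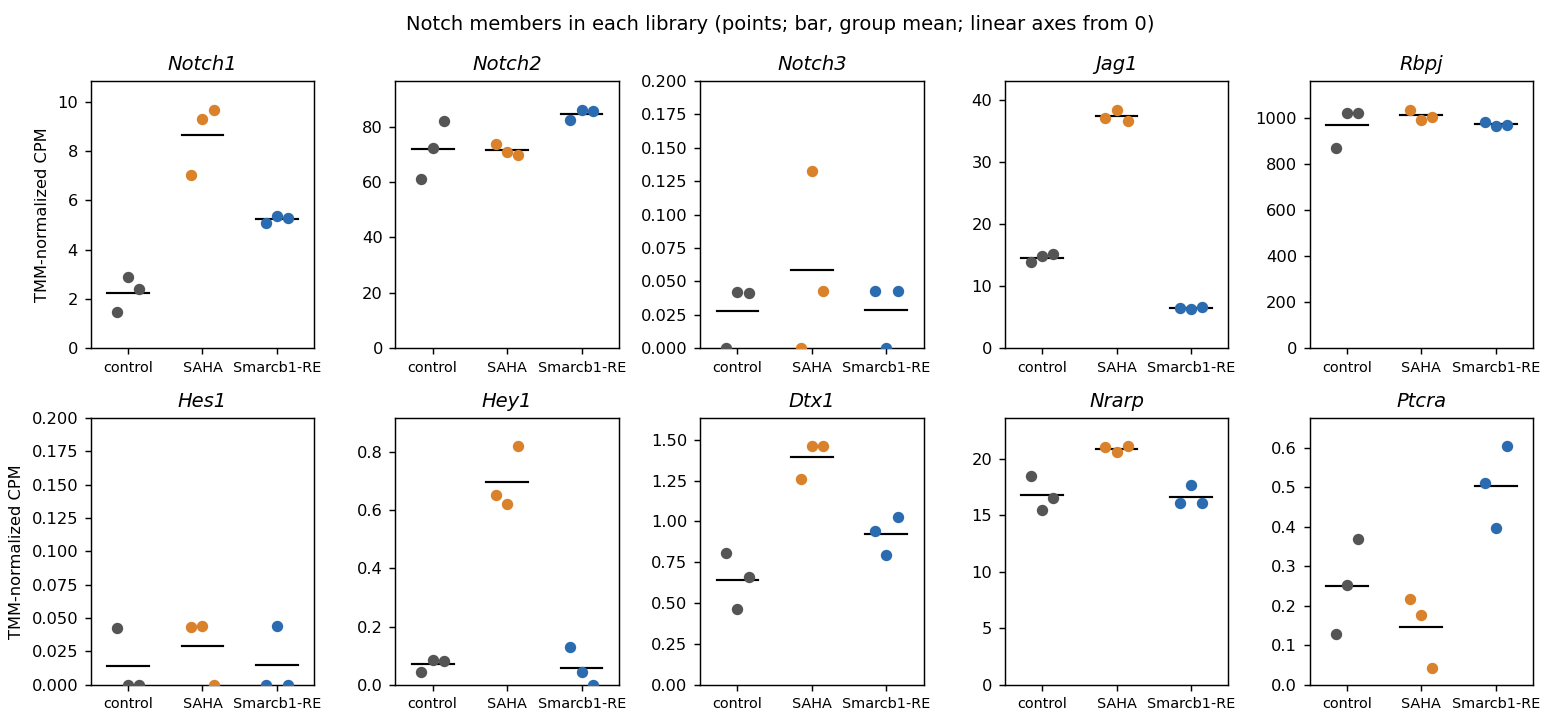
TMM-normalized CPM (linear axes from 0) of the 10 Notch genes in each of 9 libraries, with points for libraries and bars for group means. Jag1 is highest in the SAHA libraries (36.5 to 38.4) and lowest in the Smarcb1-RE libraries (6.37 to 6.68), while Notch3 and Hes1 stay near 0 in all groups.

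Notch1 was the receptor that changed most. It was higher in both treatments than in control, and higher in SAHA than in Smarcb1-RE. Notch1 (ENSMUSG00000026923), on chromosome 2 (26457903 to 26516663, minus strand, GENCODE M21 on GRCm38), was at 1.45, 2.87 and 2.39 CPM in the control libraries, at 7.02, 9.33 and 9.69 CPM in SAHA and at 5.08, 5.36 and 5.3 CPM in Smarcb1-RE. No library of any group overlapped with another group; among all tested genes, the groups did not overlap for 68.7% of genes in SAHA against control, 79.5% in Smarcb1-RE against control and 80% in the direct comparison. With 3 libraries against 3, the smallest two-sided exact permutation p for such a separation is 0.1. The log2 fold change was 1.95 in SAHA (standard error 0.2, edgeR adjusted p = 2.23e-06), or 3.87-fold, and 1.23 in Smarcb1-RE (standard error 0.21, edgeR adjusted p = 0.000121), or 2.34-fold. Smarcb1-RE was lower than SAHA by a log2 fold change of -0.73 (standard error 0.18, edgeR adjusted p = 0.00264). Without control replicate 1, which had 34 counts against 68 and 58, the changes against control were 1.72 and 0.99, and both stayed past the threshold.

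The 300 bases around the RefSeq start site of Notch1 (chr2:26503773-26504072, minus strand, GRCm38.p6), from 250 bases before to 50 after the start, are shown because Notch1 rose in both treatments. Capitals mark the GC box letters GGGCGG and their reverse complement.
Notch1: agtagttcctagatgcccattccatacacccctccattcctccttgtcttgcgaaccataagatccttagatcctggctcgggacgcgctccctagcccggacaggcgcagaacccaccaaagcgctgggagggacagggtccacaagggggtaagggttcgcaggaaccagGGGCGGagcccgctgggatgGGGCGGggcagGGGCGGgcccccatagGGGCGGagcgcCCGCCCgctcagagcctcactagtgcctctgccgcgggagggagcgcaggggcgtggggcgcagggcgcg
The window held 5 GC boxes, the first at -78 and the last at -20 from the start, and 68.3% of its bases were G or C. GC boxes are found in 35.7% of the 32851 RefSeq promoter windows of this length. They were not particular to Notch1 among the members. The Notch2 window held 7, Notch3 4, Dtx1 3, Nrarp 2 and the downstream Rbpj window 1, while those of Jag1 and Ptcra held none. Of the core letters bound by Rbpj, TGGGAA, and the longer GTGGGAA that contains them, the Notch1 window held no match on either strand; 25.6% and 6.38% of all windows have one. The match is a description of letters and not of binding.

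Notch2 was the most abundant receptor in every group. Notch2 (chromosome 3, from 98013527 to 98150361) was at 61, 72.1 and 82.1 CPM in control, 73.7, 70.8 and 69.7 CPM in SAHA and 82.5, 86.1 and 85.5 CPM in Smarcb1-RE. SAHA libraries lay inside the range of the controls (log2 fold change -0.01, standard error 0.08, edgeR adjusted p = 0.949). Smarcb1-RE libraries lay above all others, with a small log2 fold change of 0.24 against control (standard error 0.08, edgeR adjusted p = 0.0158) and 0.25 against SAHA (standard error 0.08, edgeR adjusted p = 0.0145). The gap between the highest control library and the lowest Smarcb1-RE library was small against the spread of the controls, 71.7 ± 10.5 CPM (SD, n = 3). Leaving out control replicate 2 or Smarcb1-RE replicate 2 ended the call against control (adjusted p = 0.053 and 0.0504), and leaving out SAHA replicate 2 or 3 ended the call against SAHA (0.0623 and 0.0546). Without control replicate 1 the change against control was 0.13.

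Notch3 and Notch4 RNA was barely present. Notch3 (chromosome 17, from 32120820 to 32166852), a receptor that is itself a Notch target in thymocytes, had 0, 1 and 1 counts in control, 0, 3 and 1 in SAHA, with 1, 0 and 1 in Smarcb1-RE. Notch4, the receptor best known from endothelium, had at most 6 counts in any library. No difference in Notch3 was detectable at this depth, at which 3 counts correspond to 0.12 to 0.144 CPM. Per kb of exonic length, the scale on which different genes can be compared, Notch2 stood at 6.65 ± 0.977 CPM per kb in control (SD, n = 3) and Notch1 at 0.157 ± 0.051. Of the summed level per kb of Notch1 to Notch4, Notch1 made up 2.28 ± 0.594% in control, 8.4 ± 1.49% in SAHA and 4.47 ± 0.0252% in Smarcb1-RE (SD, n = 3 each), and the groups did not overlap. Notch2 supplied 97.5%, 91.1% and 95.3%. These shares depend on the length assumed for each gene: with the longest annotated transcript in place of all exons, Notch1 made up 3.29%, 11.8% and 6.4%, in the same order of groups.

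**Figure D2:**
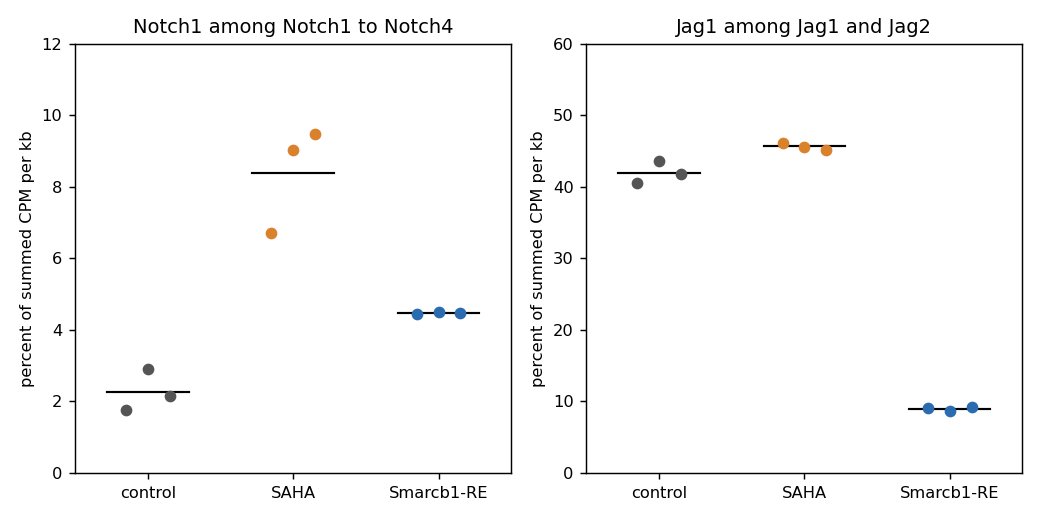
Percent of the summed CPM per kb of exonic length that is Notch1 among the receptors Notch1 to Notch4 (left) and Jag1 among Jag1 and Jag2 (right), with points for libraries and bars for means of 3. Notch1 runs from 1.76 to 2.92% in control and from 6.7 to 9.48% in SAHA, and Jag1 falls to between 8.71 and 9.18% in Smarcb1-RE.

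Jag1 moved in opposite directions in the 2 treatments. Jag1 (ENSMUSG00000027276), a transmembrane Notch ligand on chromosome 2 (137081456 to 137116644, minus strand), was at 13.8, 14.8 and 15.1 CPM in control, 37, 38.4 and 36.5 CPM in SAHA and 6.48, 6.37 and 6.68 CPM in Smarcb1-RE. The 3 groups were far apart, with SAHA above control and Smarcb1-RE below it. SAHA raised it by a log2 fold change of 1.35 (standard error 0.06, edgeR adjusted p = 2.33e-09), or 2.56-fold, while in Smarcb1-RE the log2 fold change was -1.16 (standard error 0.07, edgeR adjusted p = 6.77e-09), which makes control 2.24-fold higher. The direct comparison gave -2.52 (standard error 0.06, edgeR adjusted p = 5.78e-12), a 5.72-fold difference between the treated groups. Directions and calls were the same under each scaling and without each library in turn.

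The corresponding window of Jag1 (chr2:137116471-137116770, minus strand, GRCm38.p6) is shown beside that of Notch1 because the gene fell in Smarcb1-RE where Notch1 rose. Capitals mark CACGCG and its reverse complement, letters that Hes and Hey repressors can bind.
Jag1: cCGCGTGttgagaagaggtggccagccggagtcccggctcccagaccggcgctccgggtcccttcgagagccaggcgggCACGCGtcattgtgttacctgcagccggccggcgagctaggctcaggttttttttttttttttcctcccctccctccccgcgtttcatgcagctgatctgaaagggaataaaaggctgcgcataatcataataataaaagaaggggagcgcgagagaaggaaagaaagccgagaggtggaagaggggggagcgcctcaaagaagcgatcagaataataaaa
It held 2 such matches, at -249 and -171, against a match in 9.27% of all windows, and no GC box. The Notch2 and Dtx1 windows held 1 such match each, so that these letters were not particular to Jag1 among the members. The part of Hes or Hey proteins in the Jag1 values was not tested. Its GC content was 55.7%. Neither TGGGAA nor GTGGGAA was found.

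Jag2, the other Jagged ligand, rose in both treatments. It was at 24.2, 22.7 and 25.2 CPM in control, 51.5, 54.8 and 52.8 CPM in SAHA and 77.9, 79.8 and 79 CPM in Smarcb1-RE. The log2 fold changes were 1.14 in SAHA (standard error 0.05, edgeR adjusted p = 2.62e-09) and 1.71 in Smarcb1-RE (standard error 0.05, edgeR adjusted p = 1.49e-11). Jag1 therefore made up 42 ± 1.62% of the summed Jagged level per kb in control, 45.7 ± 0.497% in SAHA and 8.98 ± 0.239% in Smarcb1-RE (SD, n = 3 each), or 35.6%, 39% and 6.99% with the longest transcripts as lengths. On the CPM scale, the log2 ratio of Jag1 to Jag2 within a library was -0.81, -0.62 and -0.74 in control, -0.48, -0.51 and -0.53 in SAHA, but -3.59, -3.65 and -3.56 in Smarcb1-RE. Delta-like ligands were low. Dll1 was called higher in SAHA (1.69 ± 0.509 to 2.7 ± 0.389 CPM, SD, n = 3; log2 fold change 0.67, edgeR adjusted p = 0.028) although a SAHA library at 2.25 CPM lay below a control library at 2.28, and in Smarcb1-RE its log2 fold change was -0.27 (edgeR adjusted p = 0.346). Dll3 and Dll4, the ligand used by thymic epithelium, had at most 7 and 8 counts in any library and were not tested.

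Rbpj, the nuclear partner of every Notch receptor, was by far the most abundant of the 10 genes and differed little between groups. Rbpj (chromosome 5, from 53466152 to 53657362) was at 871, 1024 and 1022 CPM in control, 1037, 992 and 1007 CPM in SAHA and 983, 965 and 971 CPM in Smarcb1-RE. Apart from control replicate 1, all libraries lay within a narrow band. The log2 fold change was 0.06 in SAHA (standard error 0.06, edgeR adjusted p = 0.383), 0.00 in Smarcb1-RE (standard error 0.06, edgeR adjusted p = 0.991) and -0.06 in the direct comparison (edgeR adjusted p = 0.373). Without control replicate 1 the values in Smarcb1-RE were called lower, by -0.08 against control (edgeR adjusted p = 0.0227) and by -0.06 against SAHA (edgeR adjusted p = 0.0437), whereas with library totals as the only scaling Rbpj was called higher against control (0.16, edgeR adjusted p = 0.0267). The count of Rbpj can include reads that fit its processed pseudogenes. The larger of these, Rbpj-ps3, was assigned 40, 409 and 152 counts in control and 182 to 234 in the treated libraries, against 20479 to 24854 for Rbpj. Per kb, Rbpj reached 76.3 ± 6.89 CPM per kb in control (SD, n = 3), above Notch2 (6.65) and Nrarp (6.52).

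**Figure D3:**
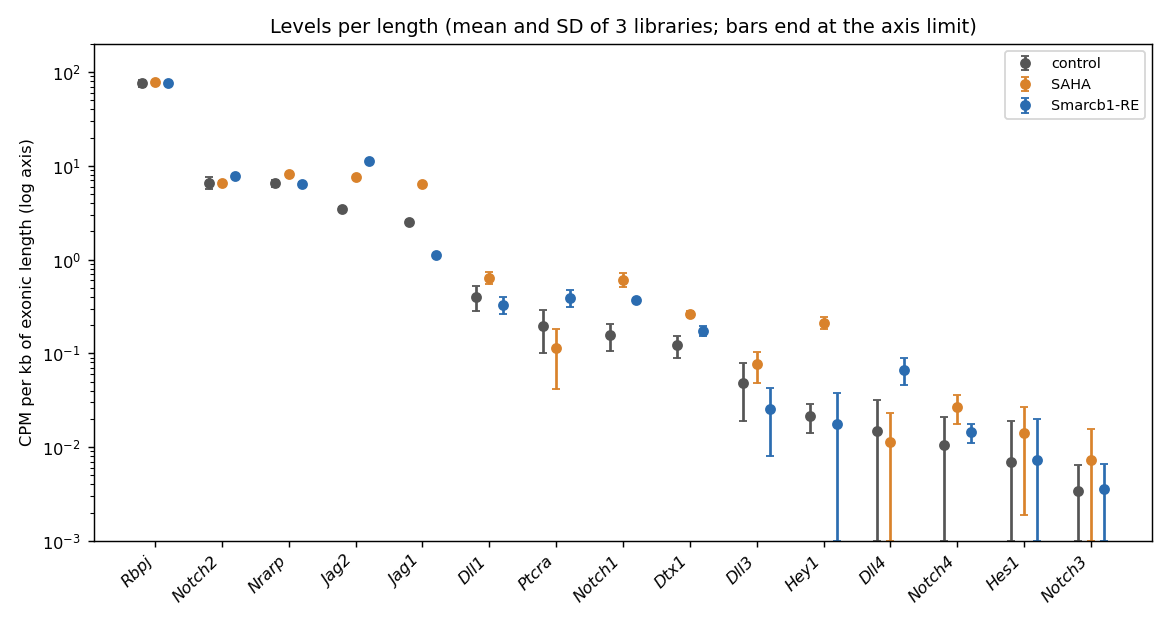
Mean CPM per kb of exonic length (log axis, error bars SD of 3 libraries, cut off at the lower end of the axis) of the 10 Notch genes and 5 further receptors and ligands, ordered by their control level. Rbpj at 76.3 in control stands above all others, and Jag1 and Jag2 are the genes at over 1 CPM per kb that spread most between groups.

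Hes1, the best known direct Notch target, was not detectable. Hes1 (chromosome 16, from 30064384 to 30067796) had 1, 0 and 0 counts in control, 1, 1 and 0 in SAHA, with 0, 1 and 0 in Smarcb1-RE, all under the floor of 3 counts. Hes5 and Heyl had 0 counts in every library.

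Hey1, a bHLH repressor and Notch target related to Hes1, was detected in SAHA only at a low level. It lies on chromosome 3 from 8663359 to 8667256. The counts were 1, 2 and 2 in control, 15, 14 and 19 in SAHA, with 3, 1 and 0 in Smarcb1-RE, so that every SAHA library lay above every other library. Summed over libraries and scaled, SAHA exceeded control 9.95-fold (exact 95% interval 3.98 to 32, 48 against 5 counts) and Smarcb1-RE 12.1-fold (4.41 to 46, 48 against 4 counts); these intervals cover counting error only. Hey1 was called in SAHA (edgeR adjusted p = 0.00017) and in the direct comparison (edgeR adjusted p = 0.000101), but it entered the test only through its SAHA counts; without a filter on low counts the values were 0.00018 and 8.51e-05. The fitted log2 difference between the treated groups, -3.47, went to -4.69 without Smarcb1-RE replicate 1 and to -2.93 without replicate 3. No difference between Smarcb1-RE and control was detectable at this depth (edgeR adjusted p = 0.8).

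Dtx1, a Deltex ubiquitin ligase that binds the intracellular part of Notch, was low and higher in SAHA. It was at 0.808, 0.465 and 0.658 CPM in control, 1.26, 1.46 and 1.46 CPM in SAHA and 0.939, 0.797 and 1.03 CPM in Smarcb1-RE, on 11 to 34 counts per library. The log2 fold change in SAHA was 1.11 (standard error 0.26, edgeR adjusted p = 0.00224). In Smarcb1-RE it was 0.52 (standard error 0.27, edgeR adjusted p = 0.0986), and the lowest Smarcb1-RE library lay just under the highest control; with library totals only it was called higher (0.68, edgeR adjusted p = 0.036). Smarcb1-RE was lower than SAHA at an edgeR adjusted p of 0.0478 (log2 fold change -0.59, standard error 0.25), a call that ended with DESeq2 (-0.60, adjusted p = 0.133), with all genes kept (-0.60, edgeR adjusted p = 0.0915), with library totals only (-0.43, edgeR adjusted p = 0.131) and in 7 of the 9 fits that left out a library (-0.68 to -0.50 over all 9), those without control replicate 1 or 2 being the exceptions.

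Nrarp, a small ankyrin-repeat protein that is induced by Notch and limits its signalling, was well expressed and changed little. It was at 18.5, 15.5 and 16.5 CPM in control, 21, 20.6 and 21.1 CPM in SAHA and 16.1, 17.7 and 16.1 CPM in Smarcb1-RE. All SAHA libraries lay above all others, by a log2 fold change of 0.31 against control (standard error 0.07, edgeR adjusted p = 0.00181), or 1.24-fold. Smarcb1-RE overlapped with control (log2 fold change -0.02, edgeR adjusted p = 0.828; the sign turned to 0.14 with library totals only) and lay below SAHA (log2 fold change -0.33, edgeR adjusted p = 0.00102).

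Ptcra was near the detection limit and followed a different order. Ptcra (ENSMUSG00000036858) is found on chromosome 17 (46755663 to 46763712, minus strand). It had 3, 6 and 9 counts in control, 5, 4 and 1 in SAHA, with 12, 9 and 14 in Smarcb1-RE. In CPM, all Smarcb1-RE libraries (0.398 to 0.604) lay above all control (0.128 to 0.37) and SAHA libraries (0.0431 to 0.217), whereas control and SAHA overlapped. Only the difference between the treated groups passed the test (log2 fold change 1.76, standard error 0.51, edgeR adjusted p = 0.00754); Ptcra entered the test only through its Smarcb1-RE counts, and with all genes kept the edgeR adjusted p was 0.0133. Against control the values were 0.99 in Smarcb1-RE (standard error 0.46, edgeR adjusted p = 0.0654) and -0.77 in SAHA (standard error 0.57, edgeR adjusted p = 0.254). The former passed with library totals only (1.15, edgeR adjusted p = 0.0377) and without control replicate 3 (1.37, edgeR adjusted p = 0.0427), and did not pass in any other alternative, with an adjusted p of 0.183 with DESeq2, 0.139 without a filter and 0.225 without control replicate 1. Without that library, the lowest control, the changes against control were 0.68 in Smarcb1-RE and -1.08 in SAHA. From summed counts, Smarcb1-RE exceeded SAHA 3.49-fold (exact 95% interval 1.69 to 7.89, 35 against 10 counts, counting error only).

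The window at the start of Ptcra (chr17:46763663-46763962, minus strand, GRCm38.p6) is shown because it holds the Rbpj core letters. Among the 8 members that have a window, these letters were found in Ptcra and Rbpj only. They are found in 25.6% of all windows, so that these matches do not set the members apart from other genes. Capitals mark TGGGAA.
Ptcra: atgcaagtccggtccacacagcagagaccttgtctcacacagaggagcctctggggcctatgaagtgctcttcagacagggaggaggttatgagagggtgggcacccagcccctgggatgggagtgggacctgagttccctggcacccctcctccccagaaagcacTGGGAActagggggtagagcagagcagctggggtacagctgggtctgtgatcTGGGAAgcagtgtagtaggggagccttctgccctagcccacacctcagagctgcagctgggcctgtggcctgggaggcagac
The 2 matches lie at -84 and -32, both on the strand of the gene, and neither is part of GTGGGAA. Both windows of Rbpj itself, which overlap, held TGGGAA, with 2 matches in the upstream window, of which 1 is also the match in the other.

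**Figure D4:**
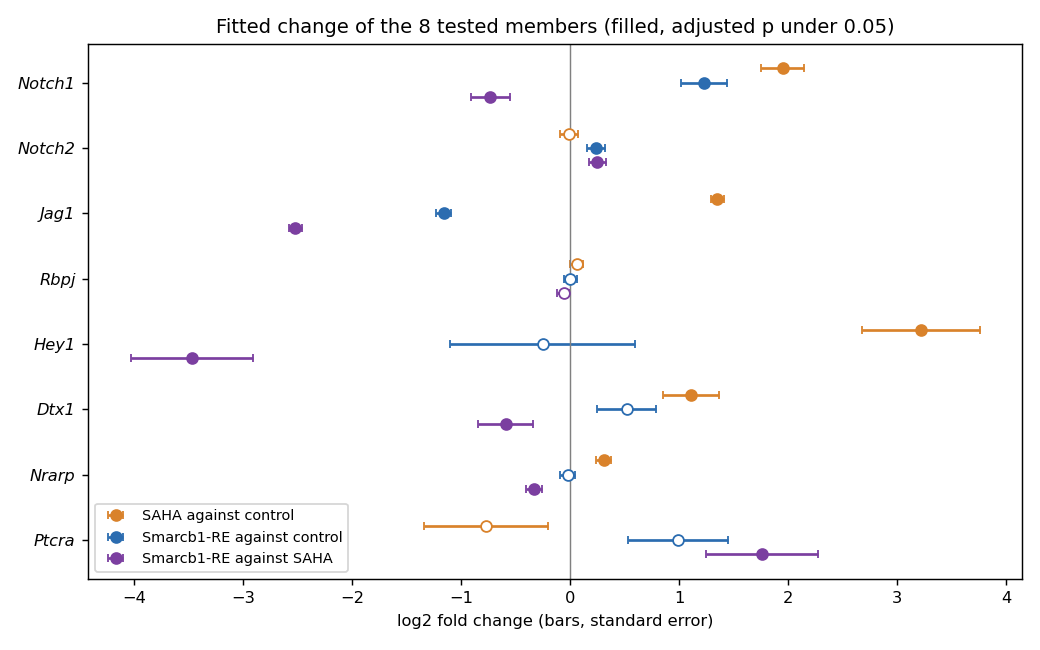
Fitted log2 fold changes with standard errors (bars) of the 8 tested members in 3 comparisons, filled where the edgeR adjusted p is under 0.05. Jag1 is called higher in SAHA (1.35) and lower in Smarcb1-RE (-1.16), while Rbpj stays between -0.06 and 0.06 in all 3.

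Ordered by group, Notch1, Dtx1 and Jag2 had their lowest mean in control, with Notch1 and Dtx1 highest in SAHA and Jag2 highest in Smarcb1-RE. For Dtx1, control and Smarcb1-RE did not differ beyond their spread. Hey1 and Nrarp were highest in SAHA, and their other groups did not differ beyond their spread. Jag1 fell in the order SAHA, control, Smarcb1-RE, with each step larger than the spread. For Notch2, control and SAHA did not differ beyond their spread, and for Rbpj no difference passed the test with TMM scaling and all libraries in the fit, although each Smarcb1-RE library lay below each SAHA library.

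The genes with the most similar pattern were sought among 11319 genes, by the root mean square difference of log2 CPM, centred on each gene's mean, over the 9 libraries. For Jag1 these were Dusp5, Arxes1 and Gcg, with differences of 0.102, 0.104 and 0.11. Notch1 was closest to Tns2, Emc9 and Fam117b (0.204, 0.215 and 0.222), and Nrarp to Cisd2, Preb and Ints11 (0.0388, 0.0455 and 0.0498). Notch2 was closest to Atf7 (0.0382), Rbpj to Tubgcp6 (0.0198) and Dtx1 to Arhgef40 (0.111). For Hey1 and Ptcra, whose counts were low, the closest genes differed by 0.283 (Gm49601) and 0.354 (Gm14444).

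The machinery around the receptors was followed in a list of 84 further pathway genes, of which 83 were found and 65 were tested. In SAHA, 26 were higher, 22 lower and 17 not called, with a median log2 fold change of 0.01 against 0.00 for all tested genes. In Smarcb1-RE, 24 were higher, 25 lower and 16 not called, with a median of -0.03 against 0.01. The called share, 73.8% in SAHA and 75.4% in Smarcb1-RE, was near that of all tested genes (66.9% and 77.8%).

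The glycosyltransferases that modify the extracellular repeats of Notch were expressed, apart from Lfng. Of 4 tested, 3 were lower and 0 higher in SAHA, a called share of 75% against 66.9% of all tested genes. These were Mfng, a Fringe enzyme that tunes ligand choice (66.5 ± 6.64 to 46.2 ± 0.917 CPM, SD, n = 3, log2 fold change -0.53), Poglut1 (-0.54) and Rfng (-0.21). In Smarcb1-RE, Mfng was lower (-0.60) and Pofut1, the O-fucosyltransferase, higher (0.28). Of 10 cleavage genes, 3 were higher and 3 lower in SAHA, and 2 were higher and 4 lower in Smarcb1-RE. The called share was 60% in both, against 66.9% and 77.8% of all tested genes. Furin, the convertase that cuts the receptor precursor, rose in SAHA (20.7 ± 1.13 to 36.1 ± 3.75 CPM, SD, n = 3, log2 fold change 0.80, edgeR adjusted p = 3.32e-06) and was at -0.09 in Smarcb1-RE (adjusted p = 0.347). The ligand-activated protease Adam10 was called lower in both (-0.16 and -0.44), although the SAHA libraries (71 to 73.1 CPM) overlapped with control (72.3 to 85.7 CPM). Aph1b and Aph1c, subunits of gamma-secretase with near-identical sequences between which reads may be divided, were higher in SAHA (0.97 and 1.06) and in Smarcb1-RE (0.77 and 0.66).

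Among the 65 genes, the largest increases in Smarcb1-RE after Gata3 were those of Neurl3 and Mib2. Next came Ccnd1 (1.92) and Il2ra (1.74), which are listed as Notch targets in T cells. Neurl3 and Mib2 belong to the genes of ligand ubiquitination and receptor turnover. Of 13 such genes tested, 6 were higher and 5 lower in SAHA and 6 were higher and 3 lower in Smarcb1-RE. The called share was 84.6% in SAHA, against 66.9% of all tested genes. In Smarcb1-RE it was 69.2%, below the 77.8% of all tested genes. Mib2, a Mind bomb ubiquitin ligase for Notch ligands, went from 29.5, 29.3 and 30.9 CPM in control to 44.8, 46.8 and 46.6 CPM in SAHA and 130, 137 and 135 CPM in Smarcb1-RE (log2 fold changes 0.62 and 2.16). Neurl3 rose in Smarcb1-RE (2.42 ± 0.175 to 13.5 ± 0.834 CPM, SD, n = 3, log2 fold change 2.48, edgeR adjusted p = 5.45e-10) and was at -0.27 in SAHA (edgeR adjusted p = 0.129). The Deltex genes Dtx3 and Dtx4 rose in both, by 0.43 and 0.62 in SAHA and by 1.67 and 1.41 in Smarcb1-RE, while Dtx2 fell (-0.38 and -0.33). Itch, a ubiquitin ligase for Notch, was lower in SAHA (-0.79, edgeR adjusted p = 9.55e-08) and was not called in Smarcb1-RE (70.7 ± 4.04 CPM in control and 70.5 ± 1 in Smarcb1-RE, SD, n = 3, edgeR adjusted p = 0.937). Fbxw7, which marks the intracellular part of Notch for degradation, was higher in SAHA (0.37) and lower in Smarcb1-RE (-0.81).

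Of 8 coactivator genes, 5 were lower and 1 higher in SAHA, and 3 were lower and 3 higher in Smarcb1-RE; the called share was 75% in both, against 66.9% and 77.8% of all tested genes. Kat2a, a histone acetyltransferase, fell from 142 ± 4.47 CPM to 75 ± 3.18 in SAHA (log2 fold change -0.92) and 64.8 ± 4.39 in Smarcb1-RE (-1.13; SD, n = 3 each). Kat2b fell in SAHA (-0.60). Maml2, the most abundant Mastermind-like gene per kb (18.8 CPM per kb in control), was lower in both (-0.16 and -0.70). Among 14 corepressor genes, 7 were higher and 4 lower in SAHA, and 6 were higher and 6 lower in Smarcb1-RE. Their called share was 78.6% and 85.7%, against 66.9% and 77.8% of all tested genes. Tle2, a Groucho-type corepressor recruited by Hes proteins, had the largest change of all pathway genes in SAHA, from 1.4, 0.634 and 1.65 CPM to 14.2, 19.5 and 18.5 CPM, and was at 3.75, 3.94 and 3.84 CPM in Smarcb1-RE. Its log2 fold changes were 3.82 (standard error 0.21, edgeR adjusted p = 1.48e-08) and 1.64 (standard error 0.25, edgeR adjusted p = 4.77e-05). Ctbp1 fell in both treatments, by 0.87 and 0.85 on the log2 scale. Ctbp2, at low level, was lower in SAHA (-0.80, edgeR adjusted p = 0.0227) and higher in Smarcb1-RE (0.75), and the call in SAHA ended in 4 of the 9 fits that left out a library (control replicate 1 or 2, SAHA replicate 1 or 2). Spen, the Rbpj-bound corepressor, was higher in both (0.58 and 0.72). Sap30, a subunit of the Sin3 deacetylase complex, rose in SAHA (0.61) and fell in Smarcb1-RE (-1.12).

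**Figure D5:**
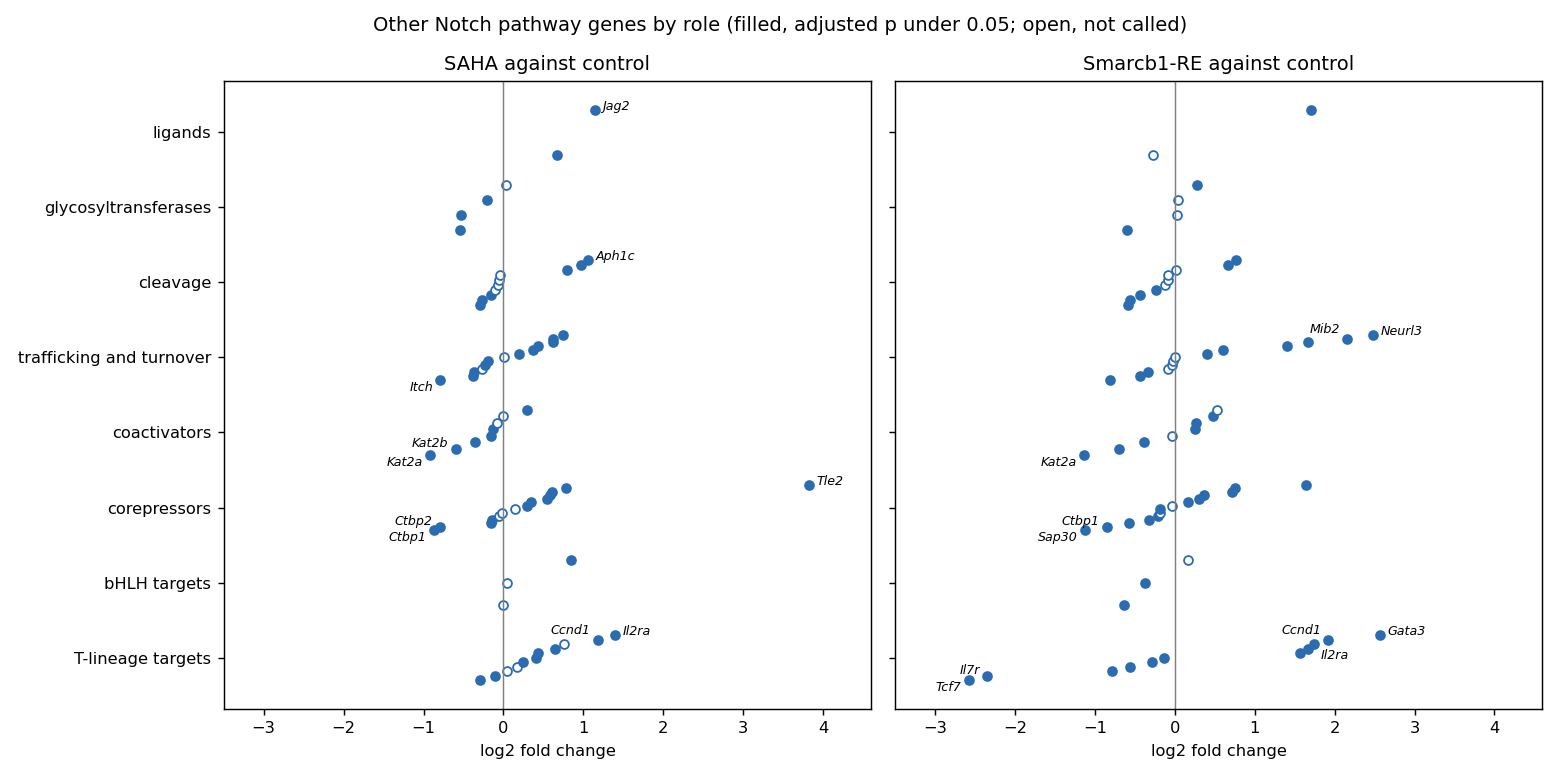
Log2 fold changes of the 65 tested pathway genes by role, in SAHA (left) and Smarcb1-RE (right) against control, filled where the edgeR adjusted p is under 0.05 with names for up to 5 calls per direction with the largest change. Tle2 (3.82) is the largest change in SAHA, and Gata3 (2.57) and Tcf7 (-2.58) lie at the ends of the right panel.

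Of the bHLH genes other than Hes1 and Hey1, 3 of 10 were tested. Bhlhe41 was higher in SAHA (0.85) and lower in Smarcb1-RE (-0.63), Bhlhe40 was lower in Smarcb1-RE (-0.37), and Hes6 was not called in either (0.05 and 0.16). Of 11 tested genes known as Notch targets in T cells, 6 were higher and 2 lower in SAHA. This was a called share of 72.7%, against 66.9% of all tested genes. In Smarcb1-RE, 5 were higher and 6 lower, so that all 11 were called there, against 77.8% of all genes. Il2ra, the alpha chain of the IL-2 receptor, rose in SAHA (0.595, 0.507 and 0.699 to 1.52, 1.59 and 1.68 CPM, log2 fold change 1.40) and in Smarcb1-RE (1.88, 2.04 and 2.16 CPM, log2 fold change 1.74). Ccnd1, encoding cyclin D1, rose likewise (1.18 and 1.92). Gata3, encoding a T-lineage transcription factor, was at 0.17 in SAHA (edgeR adjusted p = 0.281) and rose in Smarcb1-RE (2.81 ± 0.289 to 16.8 ± 0.639 CPM, SD, n = 3, log2 fold change 2.57). Tcf7 fell in Smarcb1-RE from 282 ± 10.6 to 47.2 ± 2.13 CPM (SD, n = 3, log2 fold change -2.58), and Il7r, the IL-7 receptor chain, from 36.4 ± 0.24 to 7.1 ± 0.435 CPM (log2 fold change -2.35); in SAHA their log2 fold changes were -0.11 and 0.43, both called. Myc was higher in SAHA (0.25) and lower in Smarcb1-RE (-0.56).

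Ptcra is activated in thymocytes by E proteins, which the Id proteins hold in check. The group of 7 genes followed here held Tcf3, Tcf4 and Tcf12, which encode E proteins, Id1, Id2 and Id3, and also Myb, which encodes neither kind. All were tested, with 4 higher and 2 lower in SAHA, and 3 higher and 3 lower in Smarcb1-RE. The called share was 85.7% in both, against 66.9% and 77.8% of all tested genes. In SAHA, Id1 and Id2 were higher (0.97 and 0.55) and Tcf3 and Tcf12, encoding E proteins, lower (-0.24 and -0.11). In Smarcb1-RE, Id1 and Id2 were lower (-2.25 and -0.31), and Tcf12 and Id3 higher (0.77 and 0.84). Tcf4, a further E protein gene at low level, was higher in both (2.57 and 2.26). Not all called genes of this group are named here. Whether any of them bears on Ptcra in these cells was not tested.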

How the data were processed

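The series holds 9 libraries of T15 cells, 3 per group, from stranded single-end RNA-seq. The authors deposited 1 table of estimated counts per Ensembl gene, neither normalized nor pooled; 52.35% of values above 0 were not whole numbers. The submitters' processing notes name Salmon 0.14.1, FastQC 0.11.8, MultiQC 1.7, DESeq2 1.22.2 and GRCm38, without roles; the annotation and the strand setting are not given in the sources used here. Values of paralogs and pseudogenes that share reads are uncertain. Names, coordinates and exonic lengths came from GENCODE M21 (99.46% of identifiers, 99.95% of counts), and promoter windows from RefSeq (GRCm38.p6; 8 of the 10 members matched, not Hes1 and Hey1).

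Counts were rounded and fitted in R 4.3.3 with edgeR 4.0.16 (TMM; filterByExpr, minimum count 10; the quasi-likelihood functions glmQLFit and then glmQLFTest; Benjamini-Hochberg adjustment over all 13697 tested genes, adjusted p under 0.05) in 1 model of 3 groups. Standard errors are the absolute log2 fold change over the square root of F. P-values measure the spread between libraries of a single cell line. The Notch genes, the pathway and marker lists and the naming rule were chosen with earlier results of these data known. The rule names all members, the low receptors and ligands, and per comparison with control and direction the 5 pathway genes with the largest change (adjusted p under 0.05, average log2 CPM of at least 0, no overlap of libraries); others named by role were chosen after their values were seen. Alternatives were median-ratio factors, library totals only, DESeq2 1.42.0, no filter, a floor of 10 counts in all libraries, 1 fit for each pair of groups, a replicate block, an adjusted p under 0.01 and leaving out each library; the transcript length was added after seeing the data. The calculation was tested on simulated counts. Single values of some listed genes are not reported here.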

Additional observations from a re-analysis of the deposited data

How the results depend on the processing

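Equal replicate numbers did not pair the libraries: their deviations had a mean correlation of -0.0195 (-0.128 to 0.0373), against 0.0101 for different numbers. With the replicate block, 5 Notch genes were called higher and 0 lower in SAHA, 2 higher and 1 lower in Smarcb1-RE, and 2 higher and 4 lower in the direct comparison, where Dtx1 lost its call (-0.60, edgeR adjusted p = 0.0668); the counts of all tested genes called were 4366 and 4664, 5335 and 5253, and 5141 and 4996. Counts of Notch genes called higher in Smarcb1-RE against control were 5 with library totals only and 1 at an adjusted p under 0.01, and in the direct comparison 1 with at least 10 counts in every library, with separate fits and at an adjusted p under 0.01. At that threshold 14 further pathway genes were lower in SAHA. Leaving out a library gave 1 to 3 Notch genes higher and 1 to 2 lower in Smarcb1-RE and 1 to 2 higher and 4 to 6 lower in the direct comparison.

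Among the Notch genes, sign changes were seen only in values that had not passed the test with all libraries and TMM scaling. For Notch2 in SAHA they were 0.03 with at least 10 counts in every library and 0.00 with separate fits (-0.11 to 0.10 with a library left out). For Rbpj in Smarcb1-RE they were -0.00 with median-ratio factors and with DESeq2, -0.01 with separate fits and -0.03 without a filter (-0.08 to 0.02 with a library left out), in SAHA -0.02 to 0.09 with a library left out, and in the direct comparison 0.10 with library totals only. For Nrarp in Smarcb1-RE they were 0.14 with library totals only and 0.04 with at least 10 counts in every library (-0.09 to 0.05 with a library left out), and Hey1 in Smarcb1-RE ranged from -1.48 to 0.29. Of 183 combinations of a member, a comparison and an alternative, 164 kept direction and side, as did 192 of 216 with a library left out. The causes were not tested. Hey1 and Ptcra had no value with at least 10 counts in every library, and with separate fits Hey1 had none for Smarcb1-RE against control and Ptcra only that one.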

Other observations

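Of the low-count pathway genes outside the tested set, the counts of Hes7, Dll4 and Rbpjl are given here, and those of some others are not. Hes7, a bHLH gene of the segmentation clock, had 0, 1 and 0 counts in control, 2, 13 and 7 in SAHA, with 1, 0 and 3 in Smarcb1-RE. Dll4 had 3, 1 and 0 counts in control, 1, 2 and 0 in SAHA, with 8, 4 and 6 in Smarcb1-RE, all of them above every other library. Rbpjl, a paralog of Rbpj best known from the exocrine pancreas, had 2, 2 and 1 counts in control, 5, 7 and 4 in SAHA, with 4, 4 and 6 in Smarcb1-RE, so that all treated libraries lay above all control libraries. None of these genes passed the filter on low counts, and none was tested. Such separation was common among the tested genes. The groups did not overlap for 68.7% of them in SAHA against control, 79.5% in Smarcb1-RE against control and 80% in the direct comparison.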
